A study of Mus musculus with 89 samples.

Results

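Exon skipping and read coverage were compared across all genes of 1 deposited table from mouse nucleus accumbens, the Set2 table of skipped-exon reads. The table lists 27900 events in 9542 genes. An event is 1 exon with its neighbours, for which each library has a number of inclusion reads and a number of skipping reads. The 7754 events described here, in 7075 exons of 4194 genes, were kept by depth alone, with a mean of at least 20 reads per library and at least 10 reads of the rarer form over all 5 libraries. Coverage was measured in 8201 genes. Both exon-skipping tables of the series hold 33508 events together.

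The RNA samples behind the table, per the labels, were total RNA of nucleus accumbens micro-punches from wild type C57BL/6 mice aged 8 weeks. They had received HSV-GFP, HSV-R195G or HSV-Set2, with 3 libraries each, so every group shares a herpes simplex virus (HSV) vector. The vectors are named for green fluorescent protein, for R195G, which the labels do not explain, and for Set2. The table holds 5 libraries, as a set of 2 and a set of 3 joined in its cells, and names no virus for either set. Set 1 (2 libraries) and set 2 (3 libraries) are therefore compared under those names, and no virus is assigned to a set. The labels do not say that libraries come from separate animals, so the p-values measure only the spread between these libraries, which may be technical. They do not say which cells took up the vector, and they give the cell type only as brain.

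When a cassette exon is included, the messenger RNA keeps it and the protein gains its residues or a shifted frame; when it is skipped, the neighbouring exons are joined directly. Neurons use many such exons, and proteins such as NOVA, RBFOX, CELF and PTBP set their inclusion. Set2 is the yeast enzyme that methylates lysine 36 of histone H3, a mark of transcribed gene bodies that adaptor proteins can link to splicing factors. Most neurons of the nucleus accumbens are medium spiny neurons, which use GABA and carry dopamine receptors. Brain cells answer virus with interferons, which act through JAK kinases and STAT factors to raise antiviral and antigen-presenting genes.

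The libraries held 8638249 and 8366275 reads in set 1 and 8341849, 7455234 and 7428974 reads in set 2 over all events listed, and skipping reads made up between 6.13% and 6.28% of them. Over all events listed the median was 101.6 reads per library, and over the kept events it was 129.4. No 2 libraries were the same library listed again: the chi-square per gene of their coverage was 13.3 within set 1, between 2.98 and 4.55 within set 2 and between 34.6 and 40.6 across the sets, where sampling noise alone gives about 1. Inclusion of the kept events differed by a median of 0.0354 within set 1, by 0.0365 to 0.0370 within set 2 and by 0.0407 to 0.0433 between libraries of different sets. For coverage, the SD of the log2 ratio over genes was 0.485 within set 1, 0.332 to 0.375 within set 2 and 0.693 to 0.839 between sets. Library 2 of set 1 stood apart in Ttr, the transthyretin gene of the choroid plexus, with 9888 CPM (reads scaled to equal library totals, defined below) against 405 in library 1 of set 1.

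**Figure D1:**
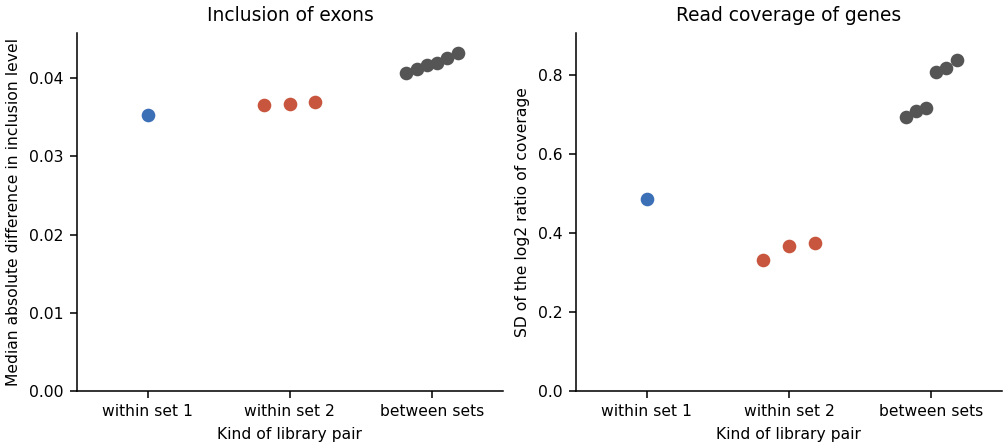
Differences between pairs of libraries, for 1 pair within set 1, 3 pairs within set 2 and 6 pairs between the sets. The left panel plots the median absolute difference in inclusion level over events and the right panel the SD of the log2 coverage ratio over genes, where the pairs between sets lie at 0.693 to 0.839 against at most 0.485 within a set.

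The inclusion level of an exon is the share of transcripts that keep it, from 0 to 1, with both read types divided by the length that can yield them. It was tested between the sets with limma on the logit scale, adjusted with the Benjamini-Hochberg method over all 7754 events, and a change is a result with an adjusted p below 0.05. The planned test, here called the total-read model, ties the spread between libraries to all reads of an event. It found 72 changed events (0.929% of all tested), 29 with higher inclusion in set 2 (0.374%) and 43 with lower (0.555%). They lie in 69 exons of 65 genes (1.55% of the genes tested). In all 72 the sets did not overlap, as in 28.4% of all events. The median absolute difference in inclusion was 0.218 among the 72, with a range from 0.00829 to 0.463, and 60 of them (83.3%) were exons of a length divisible by 3, against 52.8% of all events tested.

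Without each library in turn, 7 of these events were called throughout. Of the 72, 9 were still changed without library 1 of set 1, 27 without library 2 of set 1, and 42, 49 and 37 without libraries 1, 2 and 3 of set 2. All calls made anew, other events included, numbered 10, 30, 44, 55 and 37 in the same order. The spread behind the total-read model differed with the reads of the rarer form, with a residual variance of 1.214 in events with under 5 such reads, 1.34 with 5 to 20, 0.8921 with 20 to 100 and 0.4258 with 100 or more. A second test chosen after the data were seen, the rarer-form model, ties the spread to those reads. It found 177 changed events (2.28%), 82 higher in set 2 (1.06%) and 95 lower (1.23%), in 153 genes (3.65%), and they include 70 of the 72. Without 1 library it made 94, 133, 129, 138 and 121 calls in the same order of libraries. Under it, 52 events in 46 genes passed without each library in turn, and most genes named below are from these. In the authors' deposited table the false discovery rate was below 0.05 in 974 of the kept events (12.6%), with higher inclusion in set 2 in 5.71% and lower in 6.85% of all, and 71 of the 72 and 175 of the 177 were among them.

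Changed events lay mostly at intermediate inclusion. Of 3319 events with a mean inclusion of 0.9 or more, 11 were changed in the total-read model and 13 in the rarer-form model. Of 2282 events between 0.5 and 0.9 these counts were 38 and 82, of 1356 between 0.1 and 0.5 they were 17 and 71, and of 797 below 0.1 they were 6 and 11. Over all events the difference had no common direction: 3692 of the 7743 events with a read in every library had the higher mean inclusion in set 2.

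The calls that the total-read model kept without each library lie in Phactr1, Camk2a, Synrg, Kctd17 and Rap1gap, and 2 of these 5 genes were higher in set 2. Phactr1 binds actin and protein phosphatase 1. Its 207-nt exon (chr13:43154940-43155146 in the table's coordinates, of a build the sources do not state) had inclusion levels of 0.0270 and 0.0350 in set 1 and 0.124, 0.115 and 0.169 in set 2. Inclusion was seen in 109 and 116 reads in set 1 and 266, 237 and 323 reads in set 2, and skipping in 1652 and 1342 reads in set 1 and 788, 767 and 669 reads in set 2. All 3 libraries of set 2 lay above both of set 1, and the difference in log odds was 1.58 (SE 0.28) with a limma adjusted p of 3.62e-05. Leaving out a library raised this p to at most 0.0332, without library 1 of set 1.

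Camk2a is the alpha subunit of CaM kinase II, the calcium-dependent kinase of the postsynaptic density. Its 33-nt exon was mostly skipped in every library, with inclusion in 61 and 50 reads in set 1 and 172, 198 and 156 reads in set 2 beside skipping in 1474 and 1377 reads in set 1 and 1139, 858 and 924 reads in set 2. The set 2 libraries had more inclusion reads and fewer skipping reads, and the sets did not overlap. The log odds differed by 1.53 (SE 0.29), with a limma adjusted p of 0.00022 and of at most 0.024 without a library.

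Synrg encodes synergin gamma, a partner of the AP-1 adaptor of clathrin coats. Skipping of its 36-nt exon (chr11:83853158-83853193) was seen in 18 and 8 reads in set 1 and 57, 56 and 63 reads in set 2, and inclusion in 213 and 177 reads in set 1 and 84, 59 and 79 reads in set 2. Set 2 had several times the skipping reads of set 1 in each library. The log odds of inclusion differed by -2.47 (SE 0.38) (limma adjusted p 7.29e-07, at most 0.00397 without a library).

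Kctd17, an adaptor of a ubiquitin ligase, had 4 changed events in the total-read model, more than any other gene. Its 94-nt exon (chr15:78267331-78267424), a 199-nt form with the same start, an 88-nt exon and a 75-nt exon share 1 set of skipping reads, 147 and 128 reads in set 1 and 240, 251 and 226 reads in set 2, so they are not independent of each other. Inclusion of the 199-nt form was 0.476 and 0.462 in set 1 and 0.131, 0.116 and 0.113 in set 2, and that of the 88-nt exon was 0.493 and 0.486 in set 1 and 0.161, 0.181 and 0.171 in set 2. The 75-nt exon was included least, at 0.134 and 0.197 in set 1 and 0.0270, 0.0646 and 0.0314 in set 2. Each of the 4 was lower in all set 2 libraries, with limma adjusted p values of 7.29e-07, 1.04e-06, 0.000319 and 0.00688 in the order named. The 75-nt exon was not called without library 1 or 2 of set 1 or library 1 or 3 of set 2, the highest adjusted p being 0.284.

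Rap1gap switches off the GTPase Rap1. Its 78-nt exon (chr4:137279661-137279738) was included in 1893 and 1583 reads in set 1 and 673, 596 and 565 reads in set 2 and skipped in 353 and 283 reads in set 1 and 531, 416 and 428 reads in set 2. Skipping reads were more numerous in each set 2 library than in either of set 1, while inclusion reads were fewer. The log odds differed by -1.41 (SE 0.28) (limma adjusted p 0.000368, at most 0.0319 without a library).

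The other genes are given by role, from lists of genes. For each list the number of genes with a changed event is given in both models, beside the 1.55% and 3.65% of all genes, with the median absolute difference in inclusion, which was 0.0309 over all events. Most lists hold more events per gene than all genes do, which raises shares of genes. By events, 2.28% of all changed in the rarer-form model. The share was 10.9% for clathrin, 9.33% for vesicle priming, 13.1% for postsynaptic, 21.4% for glutamate receptor and 7.14% for ion channel genes. It was 3.28% for adhesion, 11.5% for membrane skeleton, 3.01% for microtubule, 4.26% for actin, 4.44% for GTPase and 5.66% for neuronal and hnRNP genes. Events of the same exon count separately here, as in Synj1, Dnm1 and Grin1. The glutamate receptor share rests on 3 of 14 events. All lists and their counts are descriptions and carry no test of their own. The lists were chosen with earlier results of these data known, so their shares are not independent of the calls.

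Clathrin endocytosis had changed events in 5 of 31 genes in the total-read model and in 8 in the rarer-form model, with a median difference of 0.0294. Without a library these counts lay between 2 and 4 and between 5 and 7. Snap91 is the coat assembly protein AP180 of synaptic vesicles. Its 108-nt exon was included at 0.975 and 0.970 in set 1 and 0.801, 0.918 and 0.823 in set 2, and skipped in 9 and 8 reads in set 1 and 82, 34 and 65 reads in set 2. All set 2 libraries were lower, library 2 of that set the nearest to set 1. The limma adjusted p was 0.00148 in the total-read model, where it rose to 0.177 without library 1 of set 1, and at most 0.0111 without a library in the rarer-form model. Synj1, the phosphatase that strips coats from vesicles, had a 48-nt exon at 0.991 and 0.962 in set 1 and 0.754, 0.857 and 0.866 in set 2 (adjusted p 0.0042, 0.315 without library 1 of set 1 and 0.0675 without library 1 of set 2). Its 39-nt exon was lower too, at 0.971 and 0.946 in set 1 and 0.616, 0.873 and 0.582 in set 2 (adjusted p 0.0186). This call was lost without library 1 or 2 of set 1, and the adjusted p was 0.112 and 0.116 without libraries 1 and 3 of set 2. Dnm1, the dynamin that cuts vesicles free, was higher in set 2 for a 37-nt exon, with inclusion in 256 and 169 reads in set 1 and 583, 512 and 485 reads in set 2 and skipping in 361 and 240 reads in set 1 and 251, 220 and 210 reads in set 2 in the deeper of its events. The limma adjusted p of that event was 0.00714 in the total-read model, 0.189 and 0.115 without library 1 or 2 of set 1, and at most 3.53e-08 without a library in the rarer-form model. Clta, a clathrin light chain, passed only the rarer-form model, for a 36-nt exon skipped in 110 and 105 reads in set 1 and 240, 192 and 187 reads in set 2 (adjusted p 5.41e-05, at most 0.00773 without a library).

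Vesicle priming and release had changed events in 3 of 28 genes in the total-read model and 6 in the rarer-form model, with a median difference of 0.0672. Without a library the counts lay between 0 and 4 and between 2 and 5. Stxbp2, a partner of syntaxins in secretion, had an 82-nt exon at 0.205 and 0.373 in set 1 and 0.799, 0.678 and 0.524 in set 2 (adjusted p 0.0421). Its call was lost without library 1 or 2 of set 1, and the adjusted p was 0.275 and 0.141 without libraries 1 and 2 of set 2. Syt7, a slow calcium sensor, had lower inclusion in set 2 of a 132-nt exon at 0.738 and 0.816 in set 1 and 0.401, 0.506 and 0.371 in set 2 and of a 369-nt exon at 0.685 and 0.806 in set 1 and 0.337, 0.607 and 0.292 in set 2, in the rarer-form model only (adjusted p 0.00524 and 0.00945), and without 1 library these rose to 0.0838 and 0.187.

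Postsynaptic scaffolds and kinases had changed events in 6 of 27 genes in the total-read model and in 9 in the rarer-form model, with a median difference of 0.0513 and sets that did not overlap in 48.8% of their events. Without a library the counts lay between 1 and 5 and between 5 and 7. Grip1, which anchors AMPA receptors, had a 156-nt exon at 0.809 and 0.818 in set 1 and 0.384, 0.384 and 0.282 in set 2. Set 1 included it in most transcripts and set 2 in a minority, and skipping rested on 8 and 6 reads in set 1 and 22, 33 and 25 reads in set 2. The limma adjusted p was 0.00731 in the total-read model, 0.306, 0.158 and 0.0523 without library 1 or 2 of set 1 or library 3 of set 2, and at most 0.0468 in the rarer-form model. Anks1b, a scaffold of the NMDA receptor complex, changed in both directions. Its 72-nt exon was lower in set 2, at 0.902 and 0.855 in set 1 and 0.683, 0.630 and 0.674 in set 2 (adjusted p 0.0042, 0.315 without library 1 of set 1), and its 180-nt exon was higher, at 0.405 and 0.448 in set 1 and 0.610, 0.543 and 0.590 in set 2, in the rarer-form model (adjusted p 0.00506, 0.209 without 1 library). Mpp6, a membrane scaffold, had a 42-nt exon that was higher in set 2, at 0.122 and 0.111 in set 1 and 0.279, 0.374 and 0.367 in set 2 (adjusted p 0.0259). Its call in the total-read model was lost without library 1 or 2 of set 1. The adjusted p was 0.0957 and 0.124 without libraries 2 and 3 of set 2. The 45-nt linker exon of Camk2b, the beta subunit of CaM kinase II, passed the rarer-form model alone, with inclusion in 3366 and 2829 reads in set 1 and 1335, 1152 and 1199 reads in set 2 and skipping in 791 and 658 reads in set 1 and 651, 678 and 622 reads in set 2 (adjusted p 9.82e-13, at most 2.85e-07 without a library).

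Among glutamate receptors, 2 of 10 genes had changed events in both models, Grin1 among them, with a median difference of 0.0831. The total-read count lay between 0 and 2 without a library, and the rarer-form count between 1 (without library 3 of set 2) and 3. Grin1 encodes the subunit that every NMDA receptor needs. Its 111-nt exon (chr2:25149958-25150068) was included in 449 and 421 reads in set 1 and 288, 258 and 288 reads in set 2 and skipped in 87 and 85 reads in set 1 and 219, 181 and 169 reads in set 2. Each set 2 library had more skipping and fewer inclusion reads than either of set 1, and the adjusted p of 0.00688 became 0.192, 0.112 and 0.0637 without library 1 or 2 of set 1 or library 1 of set 2. In the rarer-form model it stayed at 3.08e-05 or less.

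Of 33 genes of ion channels, pumps and calcium stores, 2 changed in the total-read model and 4 in the rarer-form model, with a median difference of 0.0676. Without a library the counts lay between 0 and 2 and between 2 and 4. Itpr1, the calcium release channel of the endoplasmic reticulum, had a 45-nt exon at 0.994 and 0.984 in set 1 and 0.949, 0.915 and 0.907 in set 2, with skipping in 2 and 5 reads in set 1 and 8, 14 and 14 reads in set 2. It was lower in every set 2 library (adjusted p 0.0256, 0.448, 0.2, 0.0756 and 0.116 without library 1 or 2 of set 1 or library 2 or 3 of set 2), and in the rarer-form model its adjusted p was 0.0522.

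In synaptic and axonal adhesion, 3 of 34 genes changed in the total-read model and 4 in the rarer-form model, all lower in set 2, with a median difference of 0.0630. Without a library the counts lay between 0 and 3 and between 3 and 4. Aplp2, a relative of the amyloid precursor, had a 168-nt exon (chr9:30975146-30975313) skipped in 127 and 127 reads in set 1 and 443, 279 and 365 reads in set 2 and included in 1121 and 1233 reads in set 1 and 1219, 1085 and 1006 reads in set 2. Cadm1, a synaptic cell adhesion molecule, had an 84-nt exon at 0.794 and 0.743 in set 1 and 0.511, 0.477 and 0.405 in set 2. Nrxn3, a presynaptic neurexin, had a 27-nt exon at 0.970 and 0.983 in set 1 and 0.786, 0.897 and 0.757 in set 2, where skipping rested on 3 and 2 reads in set 1 and 37, 12 and 42 reads in set 2. The sets did not overlap in any of these 3 exons, with limma adjusted p values of 0.0179, 0.0146 and 0.019 in the total-read model. All 3 calls were lost without library 1 or library 2 of set 1, where set 1 is 1 library. Without library 3 of set 2 the adjusted p values were 0.116, 0.109 and 0.114. Without library 1 of set 2 those of Aplp2 and Nrxn3 were 0.113 and 0.0808. In the rarer-form model Aplp2 and Cadm1 held without each library and Nrxn3 did not. App, the amyloid precursor itself, was called in the rarer-form model alone, for a 168-nt exon of low inclusion at 0.0715 and 0.0994 in set 1 and 0.0430, 0.0446 and 0.0367 in set 2 (rarer-form adjusted p 8.78e-07, at most 0.0129 without a library).

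Changes in the cell skeleton and its regulators were scattered over 4 lists. The total-read and rarer-form counts were 2 and 5 of 13 genes of the spectrin and ankyrin membrane skeleton, 1 and 4 of 32 microtubule proteins, 1 and 3 of 26 actin regulators, and 2 and 4 of 35 regulators of small GTPases. The median differences were 0.0407, 0.0341, 0.0647 and 0.0383 in the same order. The total-read counts lay between 0 and 2 in each of the 4 without a library. Without libraries 1 and 2 of set 1 and libraries 1, 2 and 3 of set 2, the rarer-form counts were 2, 3, 3, 5 and 4 for the membrane skeleton and 1, 3, 4, 3 and 2 for microtubule proteins. In the same order they were 2, 6, 4, 2 and 2 for actin regulators and 4, 2, 2, 4 and 4 for small GTPase regulators. Epb41l1, which links spectrin to the membrane, had an 84-nt exon at 0.975 and 0.930 in set 1 and 0.812, 0.774 and 0.871 in set 2 (adjusted p 0.00688). Its call was lost without library 1 of set 1, and the adjusted p was 0.0509 without library 2 of set 2. Sptan1, the alpha spectrin itself, had a 63-nt exon that few transcripts kept, with inclusion in 10 and 3 reads in set 1 and 37, 26 and 30 reads in set 2 (adjusted p 0.0207). This exon was not called without library 1 or 2 of set 1, and its adjusted p was 0.0769 and 0.0736 without libraries 1 and 3 of set 2. It was higher in set 2, whereas Epb41l1 was lower. Map4, which stabilises microtubules, had its 3180-nt exon at 0.150 and 0.0671 in set 1 and 0.0403, 0.0243 and 0.0389 in set 2 (adjusted p 0.0407). Its call was lost without library 1 of set 1, and the adjusted p was 0.0824, 0.209 and 0.0771 without libraries 1, 2 and 3 of set 2. Cyfip2, of the complex that drives branched actin, is in none of the lists. Its 75-nt exon was included in 23 and 24 reads in set 1 and 87, 70 and 88 reads in set 2 and skipped in 804 and 673 reads in set 1 and 580, 454 and 456 reads in set 2, with the higher inclusion in every set 2 library (adjusted p 0.000319, 0.0781 without library 1 of set 1, and at most 0.000268 in the rarer-form model).

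Exons of splicing regulators changed too. Of 48 neuronal and hnRNP regulators, 2 had a changed exon in the total-read model and 6 in the rarer-form model, with a median difference of 0.0222. Without a library the total-read count lay between 0 and 2, and the rarer-form count was 1 and 4 without libraries 1 and 2 of set 1 and 3, 4 and 2 without libraries 1, 2 and 3 of set 2. Nova1 binds clusters of short motifs in neuronal transcripts, and its 72-nt exon is a known target of its own protein. Skipping of this exon was seen in 7 and 18 reads in set 1 and 88, 96 and 84 reads in set 2 and inclusion in 225 and 184 reads in set 1 and 130, 190 and 152 reads in set 2. All set 2 libraries skipped it far more often (adjusted p 7.95e-06, 0.0603 without library 1 of set 1, and at most 1.9e-05 without a library in the rarer-form model). Celf6, of the CELF family, had a 150-nt exon that was higher in set 2, at 0.770 and 0.870 in set 1 and 0.942, 0.976 and 0.991 in set 2 (adjusted p 0.0238). Its call was lost without library 1 of set 1, and the adjusted p was 0.181 and 0.12 without libraries 2 and 3 of set 2. None of 23 genes of SR proteins and their kinases and none of 19 genes that place, remove or read H3K36 methylation had a changed event in either model. Sets did not overlap in 26.9% and 36.5% of their events, with median differences of 0.0323 and 0.0378.

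In 14 genes the rarer-form model called 2 or more exons. In some, such as Nnat, Phc1, Wnk1 and Add1, these are forms of 1 exon with another start or end and share reads. The exons differed in direction in Anks1b and in Cdc42bpa, a kinase of the cytoskeleton, whose 48-nt exon was lower in set 2 at 0.619 and 0.547 in set 1 and 0.410, 0.431 and 0.231 in set 2 and whose 39-nt exon was higher at 0.162 and 0.212 in set 1 and 0.369, 0.597 and 0.309 in set 2 with the same skipping reads (adjusted p 0.0144 and 0.0137, and 0.364 and 0.378 without 1 library). Nnat, an imprinted membrane protein gene, had an 81-nt exon at 0.237 and 0.281 in set 1 and 0.414, 0.435 and 0.448 in set 2 (rarer-form adjusted p 3.29e-16).

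Of 4592 events with a mean of 100 or more reads, 33 in 32 genes had all libraries of set 1 on the other side of 0.5 from all libraries of set 2. Of these, 22 in 21 genes were called in the rarer-form model, 14 turning mostly to skipping in set 2 and 8 mostly to inclusion, and 6 in the total-read model. Rap1gap, Grin1 and Dnm1 above are among the 22. Acly, the enzyme that makes cytosolic acetyl-CoA, crossed with a 30-nt exon at 0.598 and 0.648 in set 1 and 0.405, 0.445 and 0.468 in set 2. Alcam, an adhesion molecule, stayed just above 0.5 with a 39-nt exon at 0.803 and 0.824 in set 1 and 0.524, 0.507 and 0.583 in set 2. The rarer-form adjusted p was 0.000228 for Acly and 4.37e-08 for Alcam.

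Very short exons, which neurons splice with special frequency, were among the changes. Cyld, an enzyme that removes ubiquitin chains, had a 9-nt exon at 0.958 and 0.916 in set 1 and 0.746, 0.763 and 0.791 in set 2 (total-read adjusted p 0.00191, 0.329 without library 1 of set 1). Nbea, a membrane traffic scaffold of synapses, had a 9-nt exon at 0.792 and 0.824 in set 1 and 0.552, 0.548 and 0.450 in set 2 (rarer-form adjusted p 0.000584, at most 0.023 without a library). The sets did not overlap in either exon. Slmap, a membrane protein at contacts of the endoplasmic reticulum, changed in a longer exon of 90 nt, at 0.0936 and 0.102 in set 1 and 0.327, 0.231 and 0.373 in set 2 (total-read adjusted p 0.00191, 0.136 without library 1 of set 1).

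Exons in genes of kinases and transport gave further calls that held without each library in the rarer-form model. Tnk2, a kinase that binds Cdc42, had a 45-nt exon at 0.953 and 0.934 in set 1 and 0.843, 0.746 and 0.813 in set 2. Ndrg4, a neuronal protein of the N-myc downstream family, had a 39-nt exon at 0.964 and 0.970 in set 1 and 0.896, 0.922 and 0.910 in set 2, and its relative Ndrg3 a 39-nt exon at 0.104 and 0.0954 in set 1 and 0.196, 0.229 and 0.166 in set 2. Spag9, a scaffold that ties kinases to motors, had a 39-nt exon at 0.249 and 0.260 in set 1 and 0.496, 0.413 and 0.429 in set 2. Tnk2 was lower, Ndrg4 lower, Ndrg3 higher and Spag9 higher in set 2, with adjusted p values of 0.00015, 1.19e-13, 0.000587 and 0.000201.

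Exons changed in further genes of varied roles. Ppp3ca, the catalytic subunit of calcineurin, had a 30-nt exon included in 8919 and 6682 reads in set 1 and 2224, 2096 and 2000 reads in set 2 and skipped in 479 and 557 reads in set 1 and 566, 439 and 483 reads in set 2. Skipping reads were alike in number in both sets, while inclusion reads were several times fewer in set 2. Prkcb, protein kinase C beta, had a 216-nt exon at 0.871 and 0.867 in set 1 and 0.682, 0.670 and 0.658 in set 2, and Gpm6b, a membrane glycoprotein of neurons and glia, a 91-nt exon at 0.186 and 0.201 in set 1 and 0.399, 0.457 and 0.445 in set 2. Adjusted p values in the total-read model were 0.00497, 0.0092 and 0.00722, and 0.0556, 0.0597 and 0.0523 without library 3 of set 2. All 3 calls were also lost without library 1 of set 1, and those of Prkcb and Gpm6b without library 2 of set 1. In the rarer-form model all 3 held without each library, at 2.26e-12, 0.000229 and 2.34e-11 or less. Rtn3, a shaping protein of the endoplasmic reticulum, had its 2124-nt exon at 0.222 and 0.196 in set 1 and 0.112, 0.106 and 0.127 in set 2 (rarer-form adjusted p 4.4e-14), and Ogfod1, an oxygenase that modifies a ribosomal protein, was higher in set 2 for a 129-nt exon at 0.681 and 0.721 in set 1 and 0.939, 0.934 and 0.926 in set 2 (total-read adjusted p 0.000444, 0.0666 without library 1 of set 1).

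**Figure D2:**
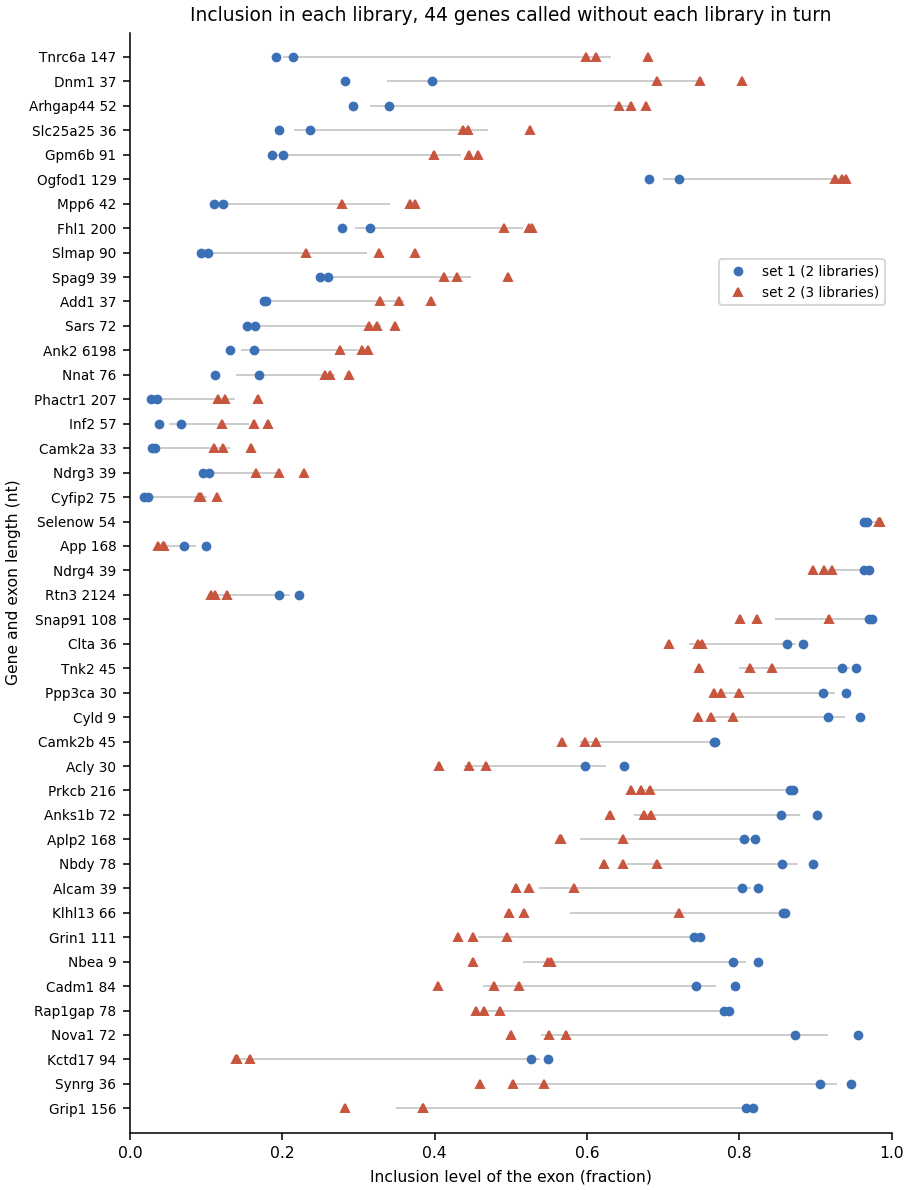
Inclusion level (fraction, horizontal axis) in each library of 44 of the 46 genes with an event called in the rarer-form model without each library in turn, 1 event a gene with the exon length in nt. Circles are the 2 libraries of set 1, triangles the 3 of set 2 and the grey line joins the set means; 20 genes are higher and 24 lower in set 2, and in no gene do the sets overlap.

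Genes with changed splicing often had changed coverage as well. Of the 153 genes with a changed event in the rarer-form model, 61 (39.9%) had changed coverage in the test described next, against 1014 (24.2%) of the 4194 genes with a tested event. These groups were not matched for read depth, on which calls of both kinds can depend. Coverage fell in set 2 in Ppp3ca by 1.34, in Kctd17 by 0.85, in Phactr1 by 0.85 and in Rap1gap by 0.70 on the log2 scale, and it rose in Nnat by 1.06 and Cadm1 by 0.96. Coverage is read at 1 event per gene and holds reads from the exon's body, so it can itself move with inclusion. It was not called changed in Synrg (-0.04), Camk2a (-0.20), Nova1 (0.27), Grin1 (0.19) and Snap91 (0.09). The summed coverage of 30 measured medium spiny neuron markers moved with the sets, 22759.5 and 18687 CPM in set 1 and 8677, 8707 and 8434 CPM in set 2, and its part in the splicing differences was not tested. Fewer cells of a type and less RNA per cell cannot be told apart in such bulk tissue.

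Coverage of many genes differed between the sets. The coverage of a gene is the sum of inclusion and skipping reads at its deepest event, scaled by library totals with trimmed mean of M-values (TMM) factors to counts per mega-read (CPM). It compares libraries for 1 gene and not the levels of different genes. It was tested with limma on log2 CPM with 0.5 reads added, so the fitted difference of a gene with few reads depends on that addition. Genes needed a mean of at least 20 reads over all 5 libraries. A gene near 0 in set 1 could pass through set 2 alone, as Phf11a did with 0 and 1 reads in set 1 and 42, 48 and 55 reads in set 2. Set 2 has more libraries than set 1 and so carries genes past this filter more easily. The part of the filter in the excess of large rises was not tested. Of 8201 genes, 1858 changed (22.7%), 1081 higher in set 2 (13.2%) and 777 lower (9.47%). Without each library in turn, 1086 were called throughout (13.2%), 645 higher (7.86%) and 441 lower (5.38%), and sets did not overlap in 49.8% of all genes. Large differences were nearly all rises: 478 genes were called and at least 1 log2 unit higher (5.83%) against 153 lower (1.87%), 169 (2.06%) against 5 (0.061%) at 2 units, and 95 (1.16%) against 2 (0.0244%) at 3 units. The 2 were Ttr and Cplx3, a complexin, whose call was lost without library 1 of set 1 (adjusted p 0.381) and libraries 1 and 3 of set 2, and 51 of the 95 were in the interferon and antigen presentation lists.

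By the rule of size among genes called without each library, the largest rises besides those described below were Slfn4, at 3 and 2 reads in set 1 and 278, 365 and 164 reads in set 2, and Oasl2, H2-Q7, Phf11a, Ifi213, Ifi203 and H2-Q4, all from families with close copies. The largest falls after Ttr were in Musk, a receptor kinase known from the muscle synapse, Cd4, Igfbp6, which binds insulin-like growth factor, and Tpm1, a tropomyosin of actin filaments. Musk was at 14.5 and 11.6 CPM in set 1 and 2.68, 2.69 and 1.10 CPM in set 2, and Tpm1 at 239.8 and 205 CPM in set 1 and 64.5, 56.5 and 54.8 CPM in set 2. Nrgn, the calmodulin-binding neurogranin, was at 1419 and 1138 CPM in set 1 and 350.1, 367 and 334 CPM in set 2, and Rgs9, which speeds the shut-off of striatal G proteins, at 501 and 365 CPM in set 1 and 112, 155 and 109 CPM in set 2. Each was lower in all set 2 libraries, with log2 differences of -2.61 (SE 0.56), -1.92 (SE 0.13), -1.86 (SE 0.10) and -1.79 (SE 0.16). The calcium release channel Ryr3 fell by 1.76, and Dach1, a transcription factor, and Mlip, a partner of nuclear lamins, by 1.90 and 1.75.

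**Figure D3:**
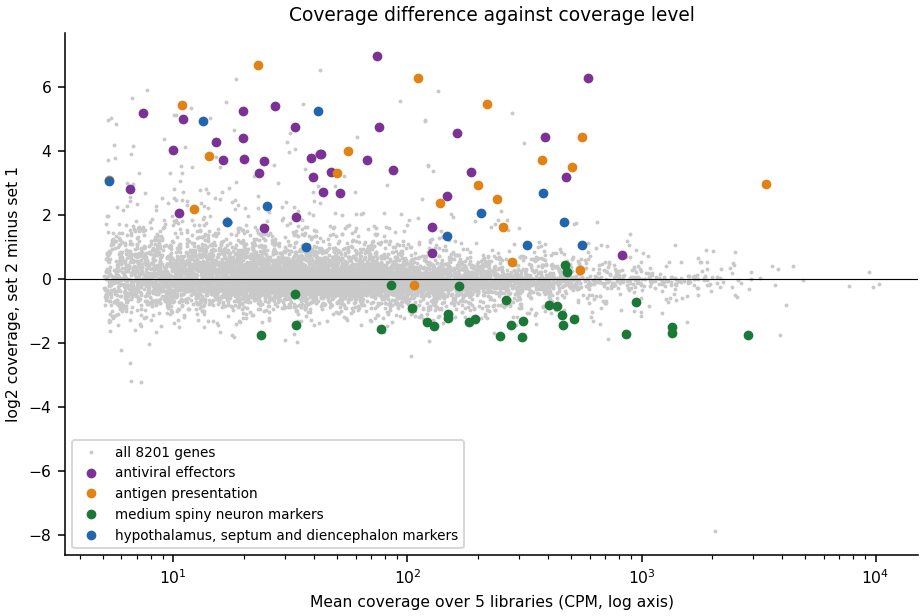
Difference in log2 coverage, set 2 minus set 1 (vertical axis), against mean coverage in CPM (horizontal log axis) for all 8201 genes in grey. Antiviral effectors and antigen presentation genes lie mostly above 2, hypothalamus, septum and diencephalon markers at 1 or more, medium spiny neuron markers mostly below 0, and the lowest point, at -7.87, is Ttr.

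Interferon signalling genes rose in set 2 in 16 of 26 measured, fell in 1 and were not called in 9, with a median difference of 1.26 log2 units against 0.0005 over all genes. Irf9, the DNA-binding part of the complex that carries the interferon signal to the nucleus, was higher by 3.38 log2 units (limma adjusted p 2.45e-07). Stat2, of the same complex, was at 6.40 and 12.1 CPM in set 1 and 92.8, 71.1 and 84.7 CPM in set 2. Usp18, which dampens the interferon receptor, was at 1.23 and 10.3 CPM in set 1 and 242, 192 and 228 CPM in set 2. In Stat2 and Usp18 the set 2 libraries were several times above both set 1 libraries, with log2 differences of 3.21 (SE 0.25) and 5.87 (SE 0.57) and limma adjusted p values of 1.93e-06 and 9.98e-06. The sensors of foreign RNA Ddx58 (RIG-I), Ifih1 (MDA5) and Dhx58 rose by 3.96, 3.56 and 4.26, and Zbp1, a sensor of Z-form nucleic acid, by 5.56. Of the 9 members not called, 6 chosen after their values were seen are Ifnar1 (0.31), Jak1 (-0.19), Tyk2 (0.36), Mavs (0.33), Tbk1 (0.16) and Irf3 (-0.14). Jak2 fell, with 79.5 and 77.3 CPM in set 1 and 50.9, 48.2 and 40.8 CPM in set 2. Without 1 library between 13 and 16 genes of the list rose.

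All 36 measured antiviral effectors rose in set 2, by a median of 3.71, and 35 or 36 did so without 1 library. The call that was lost is Ifi27, at 55.9 and 128 CPM in set 1 and 159, 139 and 151 CPM in set 2, with an adjusted p of 0.28 without library 1 of set 1. Of 53 listed effectors only these 36 had enough reads to be measured, and some had them only through set 2, where they are high. Ifi44, a strongly inducible cytosolic protein, is such a case. It had 2 and 6 reads in set 1 and 555, 389 and 476 reads in set 2, so its fitted log2 difference of 6.95 (SE 0.36) rests on 8 reads in set 1. Xaf1, a partner of the apoptosis inhibitor XIAP, was at 24.6 and 34.0 CPM in set 1 and 282, 286 and 307 CPM in set 2. Oas1a, an enzyme that turns double-stranded RNA into a signal for RNase L, was at 2.71 and 7.14 CPM in set 1 and 130.2, 119 and 118 CPM in set 2, and Eif2ak2, the kinase PKR, at 3.94 and 10.8 CPM in set 1 and 60.1, 62.5 and 60.6 CPM in set 2. Set 2 stood well above set 1 in each, and library 2 of set 1 lay above library 1 of set 1 in each. The smallest rise of the list was that of Adar, the RNA-editing enzyme with an inducible form, at 585 and 584 CPM in set 1 and 993, 971 and 988 CPM in set 2, a log2 difference of 0.75 (SE 0.07) with a limma adjusted p of 1.04e-05. Oas, Slfn, Phf11, Trim30 and Ifi200 genes have close copies, among which reads may be divided.

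Of 17 listed interferon-induced GTPases, which attack vacuoles that hold microbes, 5 were measured, and all 5 rose, by a median of 4.95. Irgm1 was at 15.8 and 17.5 CPM in set 1 and 206, 181 and 189.9 CPM in set 2 and Igtp at 4.18 and 8.87 CPM in set 1 and 191, 177 and 209 CPM in set 2. The sets were far apart in both, with log2 differences of 3.52 (SE 0.14) and 4.95 (SE 0.25). Iigp1 had 0 and 5 reads in set 1 and 134, 117 and 100 reads in set 2, so its size is uncertain. It passed the read filter through set 2 alone. The summed coverage of the 5 genes was 22.2 and 29.8 CPM in set 1 and 469, 436 and 458 CPM in set 2.

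Of 30 listed antigen presentation genes 20 were measured, and 18 of these rose, by a median of 3.21. H2-T23, the nonclassical class I molecule Qa-1, was at 37.7 and 45.8 CPM in set 1 and 899.8, 885 and 904 CPM in set 2. B2m, the light chain of every class I molecule, was at 450.5 and 973 CPM in set 1 and 4974, 5457 and 5193 CPM in set 2, and Tap1, which pumps peptides into the endoplasmic reticulum, at 3.69 and 7.88 CPM in set 1 and 92.0, 75.6 and 98.1 CPM in set 2. The libraries of set 2 were close to each other and far above set 1, with log2 differences of 4.43 (SE 0.10), 2.97 (SE 0.22) and 4.00 (SE 0.28) and adjusted p values of 4.02e-11, 9.29e-07 and 7.99e-07. The classical heavy chains H2-K1 and H2-D1 rose by 3.72 and 3.49, the proteasome parts Psmb10 and Psme1 by 2.38 and 1.62, and Cd74, the invariant chain of class II, by 3.31. H2-Q6 had 1 read in each set 1 library and 119, 155 and 158 in set 2, and class I genes are near-identical, so reads may be divided among them. Calr and H2-DMa, at 418 and 552 CPM in set 1 and 557, 635 and 571 CPM in set 2 and at 117 and 115 CPM in set 1 and 112, 89.9 and 102 CPM in set 2, were not called.

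Promoter sequences were read for these genes because the interferon-stimulated response element is the site through which STAT and IRF factors are known to act. It was searched as GAAA, any 2 bases and GAAA again on either strand, which reads as TTTC, any 2 bases and TTTC on the other. Promoters span 250 bases before to 50 after the start in RefSeq's GRCm38.p6 annotation, and 6518 of the 8201 genes had one. These letters stand in a promoter of 3.99% of all 27025 genes of the annotation and of 3.91% of the genes measured. Among measured and matched genes the share was 31 of 74 (41.9%) for those called and at least 3 log2 units higher, 19 of 297 (6.4%) for those 1 to 3 units higher and 6 of 107 (5.61%) for those at least 1 unit lower. By list it was 11 of 29 antiviral effectors (37.9%), 3 of 3 GTPases, 5 of 17 antigen presentation genes (29.4%) and 4 of 21 signalling genes (19%). The STAT dimer site TTCNNNGAA, searched on both strands, was in 9.55% of the 27025 genes and 7.98% of the 6518 measured genes. By list it was in 9 of 29 antiviral effectors (31%), 1 of 3 GTPases (33.3%), 1 of 17 antigen presentation genes (5.88%) and 4 of 21 signalling genes (19%). It was in 9 of 74 (12.2%) of the genes at least 3 units higher and in 14% of those at least 1 unit lower. A match is a run of letters and no measured binding. Some matched genes are close copies with promoters much alike, such as Phf11a and Phf11b or Ifi203 and Mndal, so the matches are not all independent. Promoters of 5 rising genes are shown as examples of where the letters stand, 5′ to 3′ on the gene's strand and in lower case, with the matches in capitals. They are Igtp (chr11:58199306-58199605, plus strand), Irgm1 (chr11:48871371-48871670, minus strand), Oas1a (chr5:120907476-120907775, minus strand), H2-T23 (chr17:36032652-36032951, minus strand) and Stat2 (chr10:128270248-128270547, plus strand).
Igtp: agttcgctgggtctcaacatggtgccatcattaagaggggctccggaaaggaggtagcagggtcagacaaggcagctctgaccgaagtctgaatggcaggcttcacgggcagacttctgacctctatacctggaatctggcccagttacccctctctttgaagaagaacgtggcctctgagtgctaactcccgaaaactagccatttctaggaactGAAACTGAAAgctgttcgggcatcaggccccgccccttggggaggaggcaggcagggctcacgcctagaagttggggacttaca
Irgm1: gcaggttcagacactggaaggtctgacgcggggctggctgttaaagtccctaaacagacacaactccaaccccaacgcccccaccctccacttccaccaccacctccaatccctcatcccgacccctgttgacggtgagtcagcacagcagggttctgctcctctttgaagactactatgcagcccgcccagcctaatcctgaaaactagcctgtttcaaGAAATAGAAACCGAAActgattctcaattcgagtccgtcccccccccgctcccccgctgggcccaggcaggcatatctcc
Oas1a: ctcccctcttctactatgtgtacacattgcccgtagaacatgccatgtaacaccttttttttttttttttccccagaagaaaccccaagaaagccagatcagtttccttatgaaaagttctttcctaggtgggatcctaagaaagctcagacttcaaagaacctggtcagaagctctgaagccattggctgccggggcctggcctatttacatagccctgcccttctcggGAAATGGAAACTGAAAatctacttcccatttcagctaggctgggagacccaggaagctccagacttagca
H2-T23: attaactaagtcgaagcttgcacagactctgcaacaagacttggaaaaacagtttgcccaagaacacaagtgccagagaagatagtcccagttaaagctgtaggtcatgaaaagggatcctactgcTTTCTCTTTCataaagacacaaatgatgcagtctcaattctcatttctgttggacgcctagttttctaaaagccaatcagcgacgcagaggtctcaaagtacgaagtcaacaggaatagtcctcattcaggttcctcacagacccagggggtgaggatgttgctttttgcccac
Stat2: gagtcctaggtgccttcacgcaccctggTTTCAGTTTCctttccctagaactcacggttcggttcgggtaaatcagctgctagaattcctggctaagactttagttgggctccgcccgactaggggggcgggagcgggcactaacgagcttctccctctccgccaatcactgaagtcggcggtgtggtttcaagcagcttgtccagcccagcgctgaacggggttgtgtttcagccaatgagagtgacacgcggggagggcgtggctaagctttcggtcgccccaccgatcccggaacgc
In Igtp the match begins 34 bases before the start and in Oas1a and Irgm1 2 overlapping matches begin at 20 and 14 and at 30 and 24 bases before it. In H2-T23 and Stat2 the match is on the other strand, 124 and 222 bases before the start.

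Medium spiny neuron markers were lower in set 2. Of 30 measured, 25 fell, 1 rose and 4 were not called, with a median difference of -1.29, and without 1 library between 25 and 27 fell. All 30 measured markers had reads in every library. Ppp1r1b is DARPP-32, the dopamine-regulated inhibitor of protein phosphatase 1. It was at 5551 and 4360.2 CPM in set 1 and 1477, 1508 and 1408 CPM in set 2. Pde10a, a striatal phosphodiesterase, was at 578 and 489 CPM in set 1 and 147, 203 and 120.0 CPM in set 2, and Drd2, the D2 dopamine receptor, at 221 and 196 CPM in set 1 and 65.5, 92.3 and 71.8 CPM in set 2. Each was lower in all set 2 libraries than in either of set 1, with log2 differences of -1.75 (SE 0.09), -1.80 (SE 0.17) and -1.46 (SE 0.15) and adjusted p values of 8.89e-08, 8.9e-06 and 1.48e-05. The peptide precursors differed among themselves: Penk fell by 0.72 and Tac1 by 0.65, and Pdyn, at 199 and 165 CPM in set 1 and 166, 138 and 164 CPM in set 2, was not called. The enzymes that make GABA did not fall; Gad2 rose by 0.44, and Gad1 was not called at 0.21.

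Markers of other places and cells moved as well. Of 11 cortical excitatory neuron markers 7 fell and 2 rose, with 1 rising without library 2 of set 1 or any library of set 2, and several of this list, such as Nrgn, Arpp21 and Mef2c, are expressed in the striatum too. Cd4 was the only one of 25 blood leukocyte markers with enough reads, and it fell, with 219 and 182 CPM in set 1 and 32.6, 46.3 and 35.1 CPM in set 2. In the hypothalamus, septum and diencephalon list, from regions beside the accumbens, 12 of 12 measured genes rose, by a median of 1.93, and all 12 rose without each library in turn. Resp18, an endocrine protein, was at 86.2 and 90.6 CPM in set 1 and 506, 710.2 and 498 CPM in set 2, and Hap1, a huntingtin partner, at 154 and 229.6 CPM in set 1 and 581, 735 and 636 CPM in set 2. The neuropeptide gene Gal was at 0.246 and 2.96 CPM in set 1 and 22.4, 164 and 17.5 CPM in set 2. The sets did not overlap in any of the 3, and Gal was far higher in library 2 of set 2 than in the others of that set. Of 35 genes in the list only 12 had enough reads to be measured, and Gal had them through set 2 alone. The list's summed coverage was 895 and 1114 CPM in set 1 and 2769.6, 3500.0 and 2799 CPM in set 2. The part that the place of the punch has in these or any other differences was not tested.

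Of 8 striatal interneuron markers 4 rose and none fell. Without any single library of set 2, 3 rose, and without library 2 of set 1 Cck and Npy were lower in set 2. Calb2, the calretinin of some interneurons, was at 13.3 and 19.2 CPM in set 1 and 105, 145 and 126 CPM in set 2, and Lhx6, a factor of interneurons from the medial ganglionic eminence, at 24.4 and 18.7 CPM in set 1 and 69.1, 56.0 and 74.5 CPM in set 2. Both were higher in each set 2 library, by 2.95 (SE 0.19) and 1.62 (SE 0.19) log2 units. Slc5a7 and Chat, of cholinergic cells, were called at 1.02 and 0.92 log2 units, but not without library 2 of set 1 for Slc5a7 (adjusted p 0.0604) and not without library 1 of set 1 (0.12) or any library of set 2 for Chat. With all libraries Npy, at 293 and 274 CPM in set 1 and 250.0, 149 and 250.2 CPM in set 2, was not called. Activity genes fell in 6 of 10 measured and rose in none. Without libraries 1, 2 and 3 of set 2 the falls numbered 4, 5 and 5, and there were fewer without library 1 of set 1 too. Homer1, a synaptic scaffold with an activity-induced short form, was at 219 and 190.2 CPM in set 1 and 93.7, 88.6 and 85.2 CPM in set 2 and Egr3 at 78.3 and 70.4 CPM in set 1 and 39.7, 31.0 and 36.7 CPM in set 2, both lower throughout set 2 (log2 differences -1.19 (SE 0.12) and -1.06 (SE 0.17)).

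Glial lists rose in part. Astrocyte markers rose in 9 of 16, by a median of 0.41, with Aqp4, the water channel of astrocyte endfeet, at 44.8 and 46.6 CPM in set 1 and 100.1, 92.3 and 98.9 CPM in set 2. Glul and Slc1a2 of the same list were not called, at -0.18 and -0.12. Without library 2 of set 1 the astrocyte count was 7, and Glul and Aldoc fell (adjusted p 0.00869 and 0.0178). Of 5 oligodendrocyte precursor markers 3 rose and 1, Bcan, fell. Without library 1 of set 1 or library 3 of set 2 only 2 of them rose, and Bcan was not called without library 1 of set 1 or library 2 or 3 of set 2. Of 3 endothelium and pericyte markers 2 rose, but 1 did without library 1 of set 1 or any library of set 2. Oligodendrocyte markers rose in 11 of 15, by a median of 0.52, but in 7 without library 1 of set 1, where 1 fell, in 14 without library 2 of set 1, and in 5, 13 and 5 without libraries 1, 2 and 3 of set 2. Microglia markers rose in 8 of 17, by a median of 0.62, but in 2 without library 1 of set 1, where 2 also fell, in 12 without library 2 of set 1, and in 3, 5 and 2 without libraries 1, 2 and 3 of set 2. Ctss, a lysosomal protease, was at 305 and 629 CPM in set 1 and 1194, 1105 and 1210.1 CPM in set 2, and C1qa, of complement, at 188 and 474 CPM in set 1 and 528, 599.8 and 482 CPM in set 2. Library 2 of set 1 lay near set 2 in C1qa and between library 1 and set 2 in Ctss. Tmem119, which marks resident microglia, was at 14.5 and 18.2 CPM in set 1 and 49.2, 37.2 and 44.1 CPM in set 2, with set 1 low in both libraries. The summed microglia coverage showed the same split within set 1, 2061 and 4199 CPM in set 1 and 4559, 4562 and 4479 CPM in set 2, and its part in the interferon result was not tested. Interferon effectors summed to 930.0 and 1227 CPM in set 1 and 5889, 5647 and 5996 CPM in set 2. Much of both set 1 sums was Adar, which was alike in the libraries of set 1. In Xaf1, Oas1a and Eif2ak2 library 2 of set 1 lay above library 1 of set 1. Complement C4b was at 78.0 and 115 CPM in set 1 and 362, 310.1 and 355 CPM in set 2, and Serping1, an inhibitor of complement, at 7.39 and 9.36 CPM in set 1 and 65.5, 74.8 and 50.7 CPM in set 2. Among reactive glia genes C4b, Serping1, Sparc, C3 and Lcn2 rose, and 8 genes rose without library 2 of set 1. Fkbp5 fell, and Gfap was not called, at 574 and 1061 CPM in set 1 and 917, 1150.3 and 954 CPM in set 2.

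Choroid plexus genes differed within set 1. Of 5 measured members of the choroid plexus and ependyma list 1 rose and 2 fell, with 3 falling without library 1 of set 1 and 1 without each of the other libraries. Rarres2, a secreted chemoattractant, rose, at 12.6 and 33.7 CPM in set 1 and 74.2, 107 and 74.5 CPM in set 2, and held without each library (adjusted p at most 0.00769). Ttr was at 405 and 9888 CPM in set 1 and 11.9, 7.54 and 6.58 CPM in set 2, and the fitted difference of -7.87 keeps its adjusted p below 0.05 without each library, at 0.000935 or less. Clic6, at 29.8 and 78.3 CPM in set 1 and 25.6, 27.7 and 21.9 CPM in set 2, was not called without library 2 of set 1 (adjusted p 0.566) or any library of set 2, and Calml4, at 0.739 and 30.0 CPM in set 1 and 0.974, 1.08 and 0 CPM in set 2, was called only without library 1 of set 1 (adjusted p 0.000338). The list's summed coverage was 452 and 10039.5 CPM in set 1 and 115, 152 and 107 CPM in set 2, nearly all of it Ttr in set 1. Enpp2, which choroid plexus and oligodendrocytes both make, was at 139.6 and 977 CPM in set 1 and 198, 159.9 and 173 CPM in set 2, and its 75-nt exon was at 0.394 and 0.109 in set 1 and 0.497, 0.474 and 0.590 in set 2. This exon was called with an adjusted p of 0.00105, and without library 2 of set 1 the adjusted p was 0.694.

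**Figure D4:**
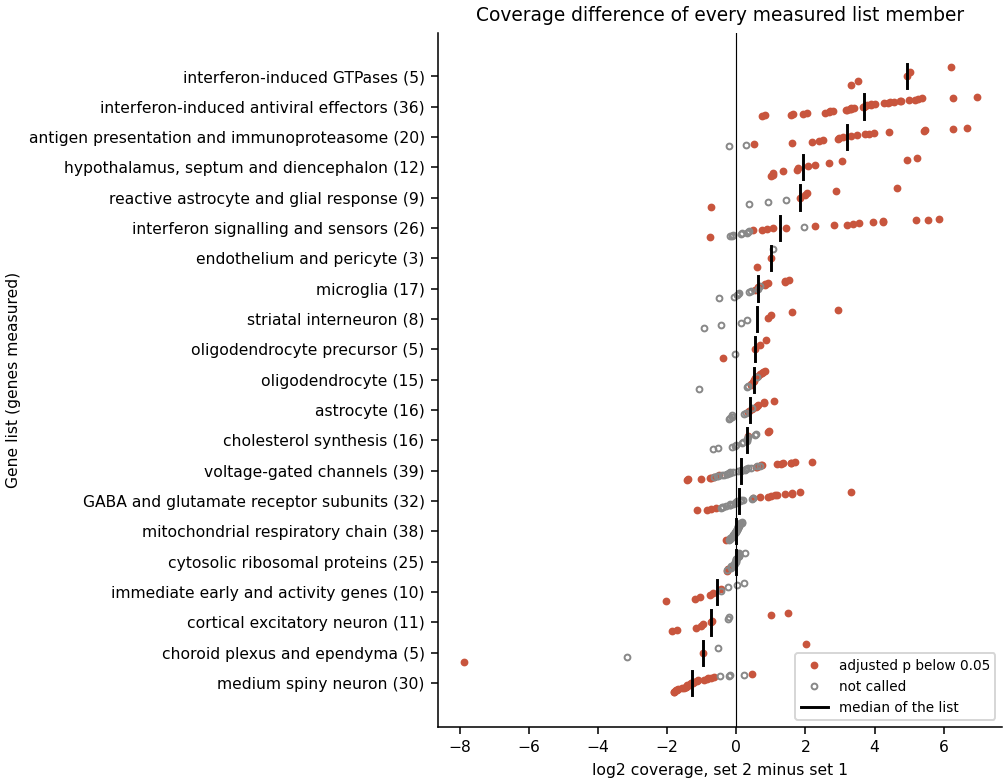
Difference in log2 coverage, set 2 minus set 1 (horizontal axis), of every measured gene in 21 lists (1 line each, with the number of genes measured). Filled points passed at an adjusted p below 0.05, open points did not, and black bars are list medians, from 4.95 for interferon-induced GTPases to -1.29 for medium spiny neuron markers.

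Receptors and channels changed in both directions. Of 32 GABA and glutamate receptor genes 11 rose and 4 fell, with a median of 0.07, and without 1 library 10 or 11 rose and 4 or 5 fell. Gabra3, an alpha subunit of GABA-A receptors, was at 40.6 and 31.8 CPM in set 1 and 116, 97.7 and 118 CPM in set 2, and Gabrb2, a beta subunit, at 33.0 and 39.9 CPM in set 1 and 95.9, 74.8 and 127 CPM in set 2. Gabrd, the delta subunit of receptors outside synapses, was at 186 and 152 CPM in set 1 and 80.6, 86.1 and 65.8 CPM in set 2. Gabra4, an alpha subunit found with delta in the striatum, was at 205 and 191 CPM in set 1 and 108, 99.3 and 127 CPM in set 2. Gabra3 and Gabrb2 were higher and Gabrd and Gabra4 lower in every set 2 library, with log2 differences of 1.61 (SE 0.15), 1.41 (SE 0.20), -1.13 (SE 0.14) and -0.84 (SE 0.12). Gabra2 and Gabra5 differed by 0.01 and 0.02 and were not called.

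Among glutamate receptors, the kainate subunit Grik1 was at 1.97 and 1.23 CPM in set 1 and 12.7, 17.2 and 21.1 CPM in set 2, and the NMDA subunit Grin3a at 34.2 and 31.5 CPM in set 1 and 117, 91.0 and 94.8 CPM in set 2. The metabotropic receptor Grm3 was at 265 and 287 CPM in set 1 and 172, 161 and 170.2 CPM in set 2. Grik1 and Grin3a were higher and Grm3 lower in every set 2 library. Gria1, Gria2 and Grin1, the main AMPA and NMDA subunits, differed by 0.14, -0.01 and 0.19 and were not called. Of 39 voltage-gated channel genes 11 rose and 7 fell, with a median of 0.15. Without libraries 1, 2 and 3 of set 2, 11, 10 and 9 rose and 7, 6 and 7 fell. Both counts also moved without a library of set 1. The fast potassium channel Kcnc1 was at 149 and 119.7 CPM in set 1 and 455, 347 and 421 CPM in set 2, and the sodium channel Scn1a at 8.86 and 5.67 CPM in set 1 and 32.1, 28.0 and 40.0 CPM in set 2, both typical of fast-firing cells, and Kcnab1, an auxiliary potassium subunit, was at 511 and 429 CPM in set 1 and 173, 169 and 178 CPM in set 2. Kcnc1 and Scn1a rose and Kcnab1 fell, by 1.60 (SE 0.13), 2.20 (SE 0.28) and -1.43 (SE 0.10) log2 units. Kcnip2 fell by 1.39. Whether these follow the neuron markers above was not tested.

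**Figure D5:**
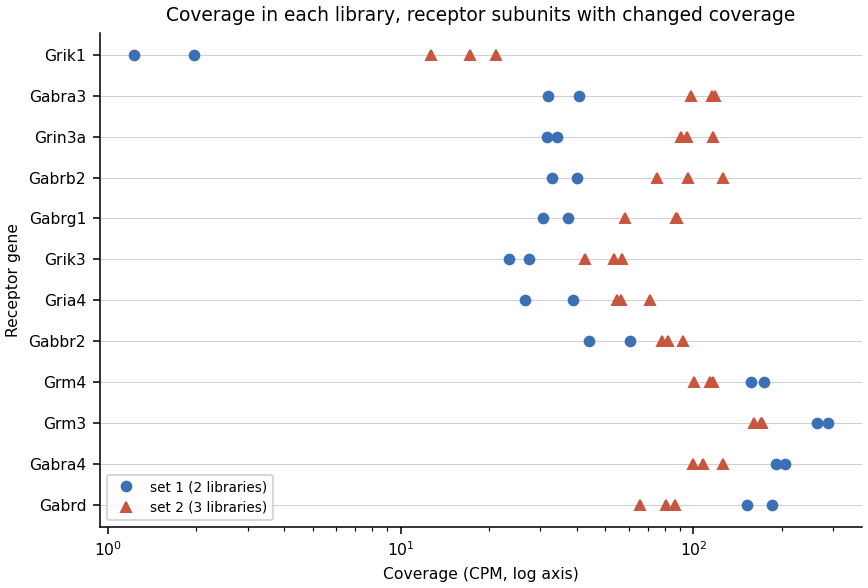
Coverage in CPM (log axis) of 12 of the 15 GABA and glutamate receptor genes with changed coverage, circles for the 2 libraries of set 1 and triangles for the 3 of set 2. Of those shown, Grik1 has the largest rise and Gabrd the largest fall, and the sets do not overlap in any of them.

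Genes of the splicing apparatus were covered differently by family. Of 59 neuronal and hnRNP regulators 17 fell and 4 rose. Elavl4, a neuronal RNA-stabilising protein, was at 34.7 and 28.8 CPM in set 1 and 106, 92.1 and 99.5 CPM in set 2, and Rbfox1, a regulator of neuronal exons, at 481 and 359 CPM in set 1 and 216, 210.0 and 238 CPM in set 2. Elavl4 was higher in every set 2 library, and Rbfox1 lower, with differences of 1.64 (SE 0.15) and -0.91 (SE 0.12) log2 units. Elavl2, Srrm4 and Celf6 rose by 1.07, 1.33 and 0.98, and Rbfox3, Celf2, Celf5 and Mbnl2 fell by 0.84, 0.84, 0.88 and 0.50. Of 32 genes of SR proteins and kinases, 2 rose and none fell, namely Rsrp1 by 0.73 and Srrm2 by 0.44. Of 29 genes of H3K36 methylation, Smyd2 rose by 1.16, Zmynd11, a reader of the mark, fell by 0.51 and Kdm4b, a demethylase, by 0.61, and the other 26 were not called.

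Few genes of general cell function changed. Of 25 cytosolic ribosomal protein genes 3 fell and none rose, with a median of -0.02, and of 38 respiratory chain genes 1 fell, with a median of -0.003. With the total of all listed reads as the scale both medians turned positive, 0.03 and 0.05, where that of all genes was 0.05. No call in these 2 lists held without each library in turn. Cholesterol and lipid synthesis rose in 3 of 16, Fads2 among them at 116 and 105 CPM in set 1 and 210.1, 207 and 222 CPM in set 2, and in 5 without library 1 of set 1, in 2 without library 2 of set 1 or library 1 of set 2, and in 1 without library 2 or 3 of set 2. Shares of rising genes depend on scaling: with TMM 58.2% of changed genes were higher in set 2, with the total of all listed reads 65.2%. How strands were counted is not stated in the sources, so reads of overlapping antisense genes cannot be told apart.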

How the data were processed

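Total RNA of mouse nucleus accumbens punches was sequenced. The authors deposited inclusion and skipping read counts per exon-skipping event, joined by commas in 1 cell per set, with inclusion levels, the difference of their means as a score, and their own p-values and FDR, which equal Benjamini-Hochberg values of the p-values within 0.001. STAR 2.4.1d, Bowtie2 and the builds mm9 and mm10 appear in the submitters' processing notes without roles. The event caller and the table's build are not stated there. The deposited inclusion level, inclusion reads over exon length plus 150 nt against skipping reads over 150 nt, was recomputed within 0.001 for 100% of values.

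As planned, limma 3.58.1 in R 4.3.3 was used on logit inclusion (0.5 added, weights from sampling variance plus a between-library variance of 0.0878, trended on reads) and on log2 CPM of each gene's deepest event (0.5 added, TMM trims 0.3 and 0.05, totals over the genes measured). No count model was used, since counts came joined. Members and gene lists were chosen with earlier results of these data known. By the planned rule, named genes are the 12 largest rises and falls called without each library and the 3 smallest p per list, with other list members by value. Few splicing events met the first part. Most other named exons outside the lists were taken from calls of the rarer-form model, which was chosen after the data were seen. Fits were tested on simulated data. Promoters come from RefSeq's GRCm38.p6 annotation, without chromosome 18. Figures used matplotlib 3.10.9 and pandas 2.3.3. Alternatives covered weights, trends, added counts, filters, scalings, and each library left out. The values of the series' second exon-skipping table were not used here. Some genes are not reported here, though counts over lists include them.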

Additional observations from a re-analysis of the deposited data

How the results depend on the processing

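The count of 72 events with changed inclusion depends on how the spread is modelled. It was 276 with weights from reads alone, 0 without weights (limma, with 785 events at an unadjusted p below 0.05, against 923 with weights), 196 with no filter on reads, 177 with the spread tied to the rarer form, which was chosen after the data were seen, and 974 in the authors' deposited table. Without 1 library it lay between 10, without library 1 of set 1, and 55, and for the rarer-form model between 94 and 138. Other added counts, read filters of 10 or 50, no trend and 1 event per exon kept it between 68 and 99. Coverage calls numbered between 1748 and 2165 under other scalings, filters, added counts, weights and summaries of a gene's events, and between 1334 and 2088 without 1 library. Of the named genes and events, none changed direction: coverage kept its side of the threshold in 980 settings of genes and lost it in 43, and inclusion kept it in 1304, gained it in 290 and lost it in 224. At a mean of 100 or more reads, the median difference in inclusion was 0.0208 within set 1, 0.0221 within set 2 and 0.0241 between sets, and the SD of the log2 coverage ratio was 0.357, 0.250 and 0.675. No paired analysis was possible because the table's columns carry no replicate numbers. With 2 and 3 libraries of unknown origin, exons with few reads of the rarer form limit the splicing calls, and no virus can be given for a direction.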

Other observations

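Genes in none of the coverage lists also differed, and the following were chosen after their values were seen. At a mean of 100 or more reads, 792 such genes were called in limma's test without each library in turn, 412 of them higher in set 2 and 380 lower. Several of the high ones belong to immune functions. Tor3a, an interferon-inducible ATPase of the endoplasmic reticulum, was at 11.3 and 16.5 CPM in set 1 and 92.3, 84.8 and 94.8 CPM in set 2. Fcgr4, an antibody receptor of myeloid cells, was at 1.48 and 11.1 CPM in set 1 and 62.3, 65.4 and 62.5 CPM in set 2, and Ms4a4c, a membrane protein of immune cells, at 0.985 and 1.48 CPM in set 1 and 62.8, 65.4 and 48.5 CPM in set 2. All 3 libraries of set 2 lay above both of set 1 in each, with log2 differences of 2.72 (SE 0.19), 3.91 (SE 0.56) and 5.46 (SE 0.31). Of the 95 genes called and at least 3 log2 units higher, 39 are in no list and 7 have names that begin with Ifi20 or Ifi21, a cluster of related genes whose reads may be divided. Itih3, a hyaluronan-binding protein, was also higher, by 2.72.

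Among the low ones were calcium proteins of forebrain neurons. Hpca, the calcium sensor hippocalcin, was at 7337 and 6195 CPM in set 1 and 1931, 2270.3 and 1858 CPM in set 2. Camk4, a nuclear calcium kinase, was at 139.8 and 128 CPM in set 1 and 46.7, 38.2 and 43.8 CPM in set 2, and Calb1, the calcium buffer calbindin, at 552 and 583 CPM in set 1 and 216, 199 and 227 CPM in set 2. Each was lower in all set 2 libraries, with log2 differences of -1.74 (SE 0.10), -1.64 (SE 0.14) and -1.41 (SE 0.09). Pcp4l1, a calmodulin-related peptide, fell by 1.53. The medium spiny neuron marker sum given above moved with these genes, and its part in them was not tested.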
